A study of Mus musculus with 47 samples.

Results

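The genes described here are 41 mouse heat shock and chaperone genes, chosen by symbol: 8 members of the HSP70 and HSP110 families, HSP90 with its co-chaperones (9), J-domain proteins (8), BAG proteins (3), small heat shock proteins (3), chaperones of the endoplasmic reticulum (5) and of mitochondria (3), and the transcription factors Hsf1 and Hsf2. All 41 were found by symbol among the 29858 genes listed in both count tables. RNA-seq libraries of brainstem and hippocampus had been made from male C57BL/6 mice, either wild type (WT) or transgenic (TG), each kept on a standard diet (SD) or a high fat diet (HFD) from weaning until 12 months of age. The 4 groups were therefore WT_SD, WT_HFD, TG_SD and TG_HFD in each region, with 6 libraries per group except 5 for brainstem WT_SD, 47 in all. The transgene was driven by the neuronal Thy1 promoter in a homozygous colony, and WT mice came from a parallel colony of the same outcross, so that genotype and colony cannot be told apart.

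Library totals ran from 10020784 to 15078812 reads assigned to genes in brainstem and from 11945971 to 17328447 in hippocampus. The 7 hippocampal markers examined were all higher in hippocampus, where their summed level was 748 to 1001 CPM (reads scaled to a common library size) against 112 to 175 CPM in brainstem, and markers of the medulla summed to 264 to 471 CPM in brainstem and to at most 0.512 CPM in hippocampus. The labels number the libraries but do not say which mouse gave which library.

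Chaperones bind unfolded or aggregation-prone proteins and help them to fold, to be refolded or to be handed to degradation. HSP70 proteins do this in cycles of ATP hydrolysis that J-domain proteins start and that nucleotide exchange factors (HSP110 and BAG proteins) end, HSP90 takes over part of their clients with the help of co-chaperones, and small heat shock proteins hold clients without using ATP. Transcription of the stress-inducible members is raised by HSF1, which binds heat shock elements, while misfolded protein in the endoplasmic reticulum acts through its own elements on Hspa5 and related genes. In brain, HSP70, HSP90 and J-domain proteins are known as modifiers of protein aggregation in neurons.

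Promoter windows of RefSeq (build GRCm38.p6, from 250 bases before to 50 bases after the annotated start) were available for 33 of the 41 genes. They are shown for members whose levels moved together or that differed between the regions, 5′ to 3′ on the gene's strand, with heat shock elements in capitals for the first 4 windows and endoplasmic reticulum stress elements in capitals for the last 2. Hspa1a (chr17:34972107-34972406, minus strand) and Hspa1b (chr17:34959189-34959488, minus strand) encode the inducible HSP70, Hspb1 (chr5:135887669-135887968, plus strand) the small heat shock protein HSP27, Hspe1 (chr1:55087898-55088197, plus strand) the mitochondrial chaperonin cofactor HSP10, and Hspa5 (chr2:34771840-34772139, plus strand) and Hsp90b1 (chr10:86705395-86705694, minus strand) the HSP70 and HSP90 of the endoplasmic reticulum.
Hspa1a: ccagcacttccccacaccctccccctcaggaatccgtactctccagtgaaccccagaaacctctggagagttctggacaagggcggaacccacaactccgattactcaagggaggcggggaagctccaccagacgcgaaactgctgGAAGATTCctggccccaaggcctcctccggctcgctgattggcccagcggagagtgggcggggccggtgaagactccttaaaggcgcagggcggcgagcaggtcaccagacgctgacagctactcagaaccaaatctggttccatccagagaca
Hspa1b: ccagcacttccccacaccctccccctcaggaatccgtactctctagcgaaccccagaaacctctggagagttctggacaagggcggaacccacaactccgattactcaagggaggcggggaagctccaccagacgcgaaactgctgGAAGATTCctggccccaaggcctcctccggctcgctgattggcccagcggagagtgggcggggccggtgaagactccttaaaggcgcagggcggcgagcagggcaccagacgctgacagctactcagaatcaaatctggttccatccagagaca
Hspb1: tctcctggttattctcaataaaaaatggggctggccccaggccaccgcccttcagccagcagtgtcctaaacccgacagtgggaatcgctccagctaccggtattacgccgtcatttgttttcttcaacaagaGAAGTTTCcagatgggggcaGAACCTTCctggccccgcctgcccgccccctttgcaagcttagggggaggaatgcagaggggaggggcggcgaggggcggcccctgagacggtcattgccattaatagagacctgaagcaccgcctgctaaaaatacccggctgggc
Hspe1: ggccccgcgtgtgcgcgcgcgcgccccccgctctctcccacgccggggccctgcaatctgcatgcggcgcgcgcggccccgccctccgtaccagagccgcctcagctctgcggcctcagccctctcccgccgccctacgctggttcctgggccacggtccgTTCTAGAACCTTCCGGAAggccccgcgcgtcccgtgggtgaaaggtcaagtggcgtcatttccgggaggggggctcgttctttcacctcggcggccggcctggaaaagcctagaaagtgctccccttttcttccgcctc
Hspa5: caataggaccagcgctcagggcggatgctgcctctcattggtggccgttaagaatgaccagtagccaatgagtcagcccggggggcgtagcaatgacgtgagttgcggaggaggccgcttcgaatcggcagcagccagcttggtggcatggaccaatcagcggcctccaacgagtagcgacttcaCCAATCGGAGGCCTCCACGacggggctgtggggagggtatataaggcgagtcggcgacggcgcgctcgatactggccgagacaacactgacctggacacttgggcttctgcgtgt
Hsp90b1: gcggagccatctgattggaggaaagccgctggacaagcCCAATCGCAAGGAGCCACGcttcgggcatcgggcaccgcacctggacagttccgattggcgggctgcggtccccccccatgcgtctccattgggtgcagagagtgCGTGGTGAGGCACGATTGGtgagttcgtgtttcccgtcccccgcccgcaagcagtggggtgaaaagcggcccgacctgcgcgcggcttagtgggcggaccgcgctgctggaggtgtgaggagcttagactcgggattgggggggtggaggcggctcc

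The windows of Hspa1a and Hspa1b were identical at 296 of 300 positions, and both held GAAGATTC. A pair of inverted heat shock units (GAA and TTC in either order, 2 bases apart) reads the same on both strands. It was found in any window of 14 of the 33 genes, against 17% of all 27025 genes with a window. The longer run of 3 alternating units at the same spacing, searched on both strands and containing the pair, was found in 4 of the 33 (Hsph1, Dnajb6, Hspd1 and Hspe1) and in 0.662% of all genes. Hspd1 and Hspe1 are divergent neighbours. The last annotated window of Hspd1 shares 285 bases with that of Hspe1 and therefore the same elements, and the matches of Hspd1 lay only in that window. The endoplasmic reticulum stress element (CCAAT, 9 bases of any kind, then CCACG), searched on both strands and containing the common motif CCAAT, was found in Hspa5, Hsp90b1 and Dnajc3 and in 0.137% of all genes. These are matches of letters and no measure of binding.

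Levels per kilobase of annotated transcript (CPM per kb) placed 3 cytosolic chaperones above all other members in both regions. Hspa8, the constitutive HSP70, had a mean of 904 CPM per kb in brainstem and 687 in hippocampus, Hsp90aa1 (HSP90 alpha) had 483 and 393, and Hsp90ab1 (HSP90 beta) had 478 and 615. Hsp90aa1 and Hsp90ab1, neighbours in the brainstem order, differed there by less than the spread between libraries. At the other end, the inducible genes Hspa1a and Hspa1b had 0.709 and 0.686 CPM per kb in brainstem, and Hspb1, Hspa1a and Bag3 had 2.56, 2.57 and 2.7 in hippocampus, values close to each other next to the spread of these genes. Annotated transcript length need not match the transcripts used in brain.

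Hspa1a, Hspa1b, Stub1 and Hspb1 varied most between libraries of a group. The pooled within-group SD of log2 CPM was 0.59 for Hspa1b, 0.42 for Hspa1a, 0.37 for Stub1 (the ubiquitin ligase CHIP) and 0.33 for Hspb1 in brainstem. In hippocampus it was 0.37 for Hspa1a, 0.33 for Hspa1b, 0.26 for Hspb1 and 0.24 for Stub1. The smallest spreads were 0.053 for Hspa8 in brainstem and 0.043 for Hsp90ab1 in hippocampus. Brainstem Hspa1a and Hspa1b averaged 27.0 and 24.7 reads per library, so that counting error alone is large there. They lay under the minimum mean of 50 reads set for the comparisons within a region, as did Hspb1 in hippocampus with 32.8 reads.

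The regions were compared first, in a joint model of the 8 groups over 13458 genes, all 41 members among them (edgeR quasi-likelihood test, with calls made at a Benjamini-Hochberg adjusted p up to 0.05 and a log2 fold change of 0.3 or more in either direction). Libraries of both regions entered as independent because the labels do not tie them to mice, though the same mouse may have given both. Hippocampus and brainstem differed in 24 of the 41 genes, or 58.5%, against 60.2% of all genes tested. Of these, 6 were higher in hippocampus, where 29.2% of all genes were, and 18 were higher in brainstem, where 31% of all genes were. The median log2 fold change, hippocampus over brainstem, was -0.27 for the 41 genes and -0.02 for all genes. Levels of all hippocampal libraries lay outside the range of all brainstem libraries for 17 members, and for 35% of all genes. The sign of the difference was the same in each of the 4 groups for every member called.

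The HSP70 family was split. Hspa1b had a lowest, median and highest level of 0.563, 2.08 and 3.66 CPM in brainstem and 5.77, 10.4 and 17.1 CPM in hippocampus, 5.82-fold higher there (log2 2.54, SE 0.12, adjusted p = 1.3e-24). For Hspa1a the same values were 0.792, 2.01 and 3.38 CPM in brainstem and 3.09, 6.84 and 13.6 CPM in hippocampus (3.60-fold, log2 1.85, SE 0.11, adjusted p = 1.07e-20). The lowest hippocampal library thus reached the brainstem range for Hspa1a and not for Hspa1b. The reads of 75 bases cannot place fragments from the stretches these copies share, so the division of reads between both genes is uncertain.

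Hspa2, an HSP70 best known from male germ cells and also expressed in brain, had 9.05, 12.6 and 15.0 CPM in brainstem and 54.0, 61.9 and 69.1 CPM in hippocampus (5-fold, log2 2.32, SE 0.039, adjusted p = 6.72e-44), with no overlap. Hspa12a, a distant relative of HSP70, was 1.57-fold higher in hippocampus. In the other direction, Hspa8 stood at 2050, 2159 and 2352 CPM in brainstem and at 1534, 1650 and 1755 CPM in hippocampus, 1.32-fold higher in brainstem (log2 -0.40, SE 0.019, adjusted p = 2.59e-24) and without overlap. Hspa4l, a member of the HSP110 family, was 1.91-fold higher in brainstem, while its relatives Hspa4 (log2 0.09) and Hsph1 (log2 0.22, adjusted p = 2.17e-09) did not reach the fold threshold. Hsph1 had 188, 222 and 252 CPM in brainstem and 228, 258 and 290 CPM in hippocampus.

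**Figure D1:**
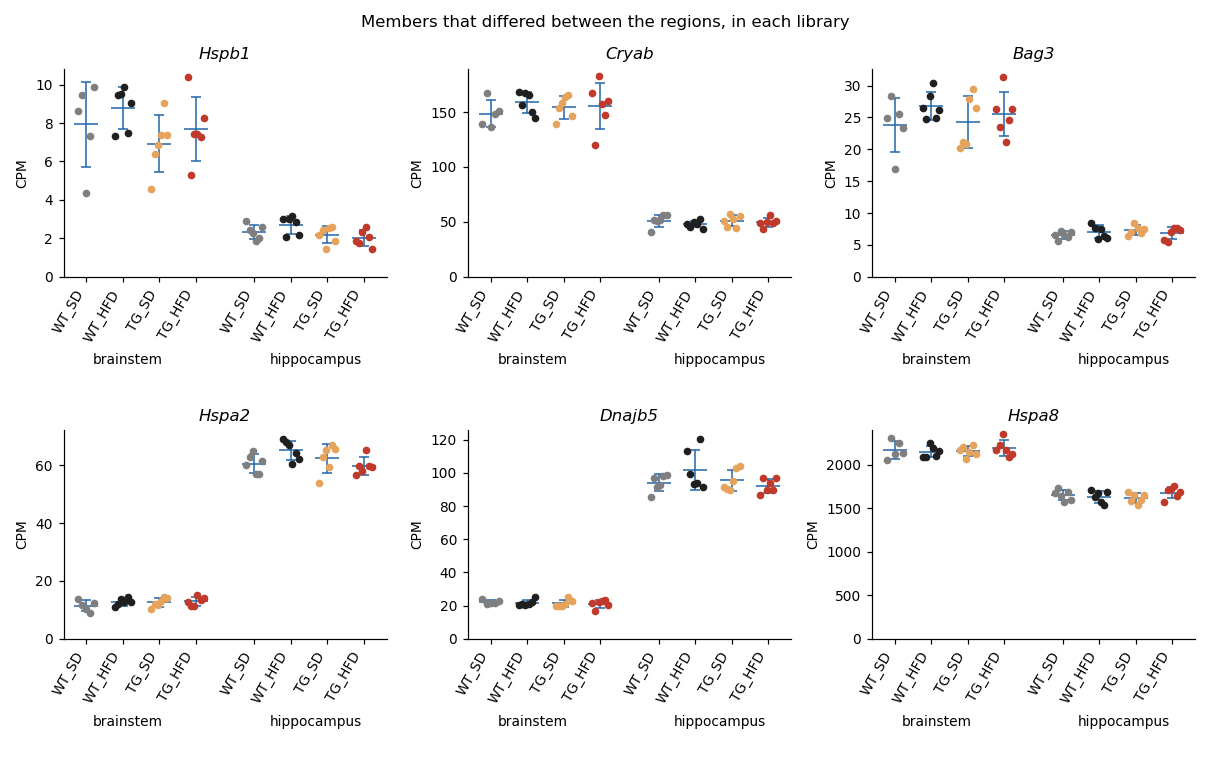
Level in CPM (linear axes from 0) of Hspb1, Cryab, Bag3, Hspa2, Dnajb5 and Hspa8 in every library by region, genotype and diet, each point 1 library and each bar a group mean with its SD. Hspb1, Cryab, Bag3 and Hspa8 lay higher in brainstem and Hspa2 and Dnajb5 higher in hippocampus, with no overlap of the regions.

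Among HSP90 and its co-chaperones, 4 were higher in brainstem and 1 in hippocampus. Hsp90ab1 was at 1099, 1205 and 1292 CPM in brainstem and 1426, 1560 and 1625 CPM in hippocampus (1.28-fold, log2 0.36, SE 0.020, adjusted p = 2.75e-22), while Hsp90aa1 was at 1168, 1366 and 1524 CPM in brainstem and 1024, 1123 and 1227 CPM in hippocampus (log2 -0.30, SE 0.026), a change of -0.2998 that fell just short of the threshold. St13, the HSP70-interacting protein HIP, lay just past it at -0.3003. The fold changes of the HSP90 paralogues thus had opposite signs. Stip1, which links HSP70 to HSP90, was 1.87-fold higher in brainstem and Fkbp4, an immunophilin of steroid receptor complexes, 1.79-fold, both without overlap. Ptges3 (p23) was also higher in brainstem (log2 -0.32), and the calls of Ptges3 and St13 were lost with DESeq2, RLE normalization, a minimum total of 50 reads, the filterByExpr minimum, surrogate variables, the GC correction or WT_SD alone. The ATPase activator Ahsa1 (-0.25), the kinase co-chaperone Cdc37 (0.13) and Stub1 (0.17) were not called, and Stub1 turned to -0.15 with surrogate variables and to -0.20 after the GC correction.

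Of the 8 J-domain genes 1 was called higher in hippocampus and 1 in brainstem. Dnajb5 was at 16.7, 21.3 and 25.0 CPM in brainstem and 85.6, 93.7 and 120.4 CPM in hippocampus (4.46-fold, log2 2.16, SE 0.036, adjusted p = 3.67e-44). Dnajb2, known from inherited motor neuropathy, was 2.22-fold higher in brainstem. Dnajb1, the inducible partner of Hspa1a, had 31.5, 35.9 and 44.0 CPM in brainstem and 34.4, 36.5 and 41.2 CPM in hippocampus (log2 0.04, SE 0.028, adjusted p = 0.202). Dnajc5, the cysteine string protein of synaptic vesicles, had 265, 324 and 365 CPM in brainstem and 323, 368 and 391 CPM in hippocampus (log2 0.17, SE 0.030, adjusted p = 9.15e-07), under the fold threshold. Dnaja1, Dnaja2, Dnajb4 and Dnajb6 passed the adjusted p too but lay between -0.13 and 0.21, short of that threshold.

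**Figure D2:**
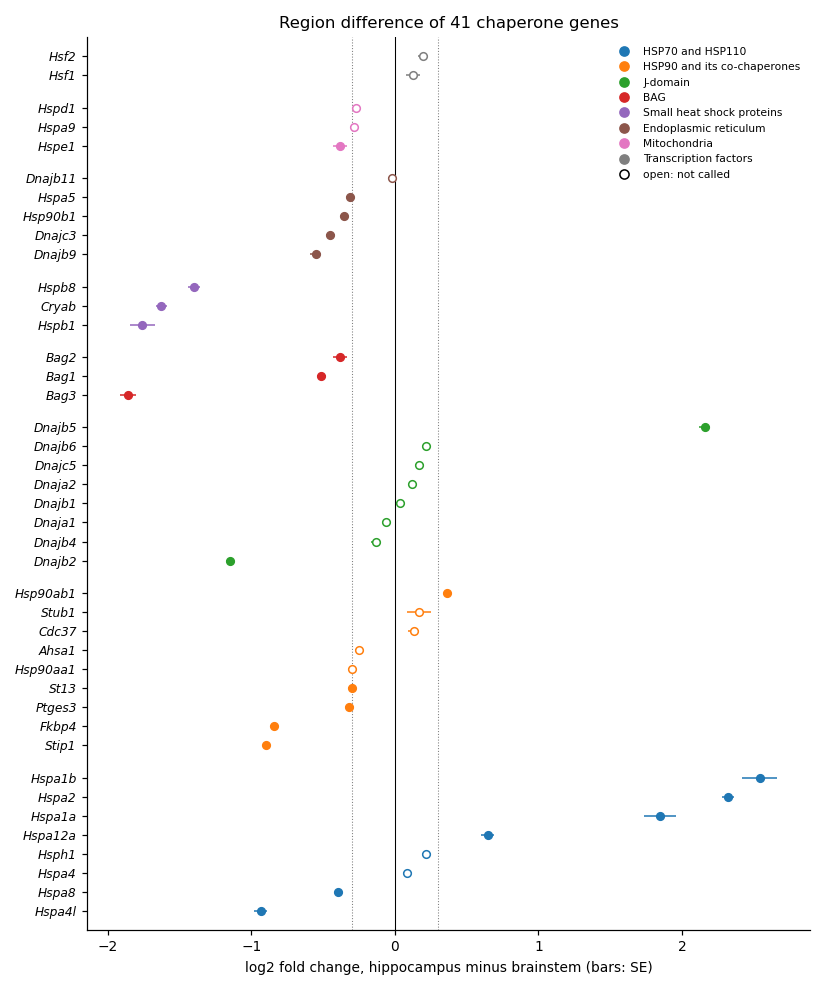
Log2 fold change, hippocampus over brainstem, with its standard error for the 41 genes grouped by role, with filled points for members called and dotted lines at the threshold of 0.3 in either direction. BAG and small heat shock genes all lie to the brainstem side, from -0.38 to -1.86, and Hspa1a, Hspa1b, Hspa2 and Dnajb5 lie past 1.8 on the hippocampus side.

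All 6 BAG and small heat shock genes were higher in brainstem. Bag3, which pairs HSP70 with small heat shock proteins in selective autophagy, had 17, 25.5 and 31.4 CPM in brainstem and 5.43, 6.99 and 8.49 CPM in hippocampus (3.62-fold, log2 -1.86, SE 0.056, adjusted p = 5.29e-33). Hspb1 had 4.36, 7.46 and 10.4 CPM in brainstem and 1.45, 2.31 and 3.16 CPM in hippocampus (3.38-fold, log2 -1.76, SE 0.086, adjusted p = 3.14e-24). Cryab (alpha B crystallin) had 120, 157 and 183 CPM in brainstem and 40.8, 50.4 and 57.5 CPM in hippocampus (3.09-fold, log2 -1.63, SE 0.039, adjusted p = 1.46e-37). The regions did not overlap for any of the 3. Hspb8, the small heat shock partner of Bag3, was 2.64-fold higher in brainstem, Bag1 had a log2 fold change of -0.51 and Bag2 of -0.38.

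Of the endoplasmic reticulum genes, 4 of 5 were higher in brainstem. Hspa5 (BiP) had 218, 244 and 277 CPM there and 180, 195 and 223 CPM in hippocampus (log2 -0.31, SE 0.026, adjusted p = 1.26e-15), a call lost under the same 7 alternatives as that of Ptges3. Hsp90b1 (GRP94, -0.36), Dnajb9 (-0.55) and Dnajc3 (-0.45), the latter pair being J-domain partners of BiP, were called as well, and Dnajb11 was not (-0.02, adjusted p = 0.462). Of the mitochondrial genes, Hspe1 (-0.38) was called while Hspd1 (HSP60, -0.27) and Hspa9 (mortalin, -0.28) fell short of the fold threshold. The transcription factors Hsf1 (15.2, 18.3 and 21.7 CPM in brainstem, 15.0, 19.9 and 25.7 CPM in hippocampus, log2 0.12) and Hsf2 (0.20) were not called.

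Cell type markers moved with these differences. All 10 oligodendrocyte markers were lower in hippocampus (median log2 -2.17), their sum being between 12728 and 21180 CPM in brainstem against 3066 to 4760 CPM in hippocampus, and none was at 0 in either region. Of 6 endothelial markers 5 were lower in hippocampus, of 5 red blood cell genes all 5, of 8 astrocyte markers 5, with 2 higher, and of 6 microglial markers 4 were higher. Of 6 neuronal markers 3 were higher and 3 lower, with sums of 5369 to 6179 CPM in brainstem and 5322 to 6129 CPM in hippocampus. Of 3 choroid plexus markers tested 2 were lower in hippocampus, and the sum of all 5 ran from 11.9 to 2926 CPM among brainstem libraries against 37.6 to 312 CPM. The part of cell composition in the regional differences was not tested, and in tissue RNA fewer cells of a type and less RNA per cell cannot be told apart.

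Other genes of the folding machinery were compared from lists that held no member. Of 34 further cytosolic chaperones and co-chaperones, 12 were higher and 8 lower in hippocampus (median log2 0.05), among them the immunophilin Fkbp5 at 1.69 and the small heat shock gene Hspb6 at -1.43. A list of 16 genes held subunits of the chaperonin TRiC and of prefoldin, and Pdcl and Tbca, which are subunits of neither. Of these 16, 0 were higher and 8 lower, Pdcl (-0.41) and Tbca (-0.60) among them (median -0.31, lowest Pfdn2 at -0.70). For the endoplasmic reticulum 3 of 24 were higher and 5 lower (Atf6 1.03, Herpud1 -0.65). For mitochondria 1 of 15 was higher (Grpel2 0.57) and 3 lower (Phb -0.69, Hscb -0.51 and Trap1 -0.32). The medians of these lists stand beside -0.02 for all genes, and the counts beside 29.2% of all genes higher and 31% lower in hippocampus.

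Genotype and diet were compared within each region over 13340 genes in brainstem, 39 members among them, and 13272 genes in hippocampus, with 40 members. The models held 4 surrogate variables, axes of variation between libraries estimated from the counts themselves and used as covariates. No member was called in any of the 5 contrasts of either region, and DESeq2 with the same variables also called 0 of them in each. The log2 fold changes of the members ran from -0.20 to 0.23 over all 10 contrasts, with a median standard error between 0.038 and 0.061, and their medians lay between -0.01 and 0.02.

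In brainstem, TG_SD/WT_SD gave 0 of 39 members against 0.142% of all genes, and 9 members (23.1%) against 10.5% of all genes at a p of 0.05 or less before adjustment. TG_HFD/WT_HFD gave 0 against 0.0525%, and 0 against 5.6% unadjusted. WT_HFD/WT_SD gave 0 against 0%, and 1 against 5.42% unadjusted. For TG_HFD/TG_SD the figures were 0 against 0.0075%, and 1 against 6.91%, and for the interaction of genotype and diet 0 against 0.0075%, and 0 against 4.82%. The 9 members at the unadjusted level in TG_SD/WT_SD were Hspa2, Hspa12a, Dnaja1, Dnajb2, Dnajc5, Bag1, Cryab, Hspa5 and Hsp90b1, with adjusted p between 0.208 and 0.458.

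In hippocampus, TG_SD/WT_SD gave 0 of 40 members against 0.098% of all genes, and 2 against 9.08% at the unadjusted level. TG_HFD/WT_HFD gave 0 against 0.226%, and 7 (17.5%) against 11.3% unadjusted. WT_HFD/WT_SD gave 0 against 0%, and 1 against 6.41%. TG_HFD/TG_SD gave 0 against 0%, and 0 against 7.08%, and the interaction gave 0 against 0%, and 2 against 5.98%. The 7 members in TG_HFD/WT_HFD were Hspa12a, Ptges3, St13, Stub1, Dnaja1, Dnajb6 and Dnajc3, with adjusted p between 0.0849 and 0.436, and Stub1 was at 0.19 in this model and at -0.37 without surrogate variables (adjusted p = 0.0620). These contrasts share groups, so that their counts are not independent.

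The members with the smallest p in each contrast were taken from the fits with 4 surrogate variables. The smallest p need not mark the largest change, which was 0.23 for a member in brainstem TG_SD/WT_SD. In brainstem these were Hspa12a in TG_SD/WT_SD (log2 -0.11, SE 0.034, adjusted p = 0.208), Hspe1 in TG_HFD/WT_HFD (-0.11, adjusted p = 0.883), Bag3 in WT_HFD/WT_SD (0.15, adjusted p = 0.913) and Dnajb2 in TG_HFD/TG_SD (-0.10, adjusted p = 0.520). In hippocampus they were Dnajc3 in TG_SD/WT_SD (-0.13, adjusted p = 0.240) and in TG_HFD/WT_HFD (-0.20, SE 0.052, adjusted p = 0.0849), St13 in WT_HFD/WT_SD (0.14, SE 0.033, adjusted p = 0.242) and Fkbp4 in TG_HFD/TG_SD (0.08, adjusted p = 0.707). Without surrogate variables Dnajc3 was at 0.02 in TG_HFD/WT_HFD and St13 at 0.04 in WT_HFD/WT_SD. The smallest adjusted p for an interaction was 0.709, for St13 in hippocampus (-0.12).

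**Figure D3:**
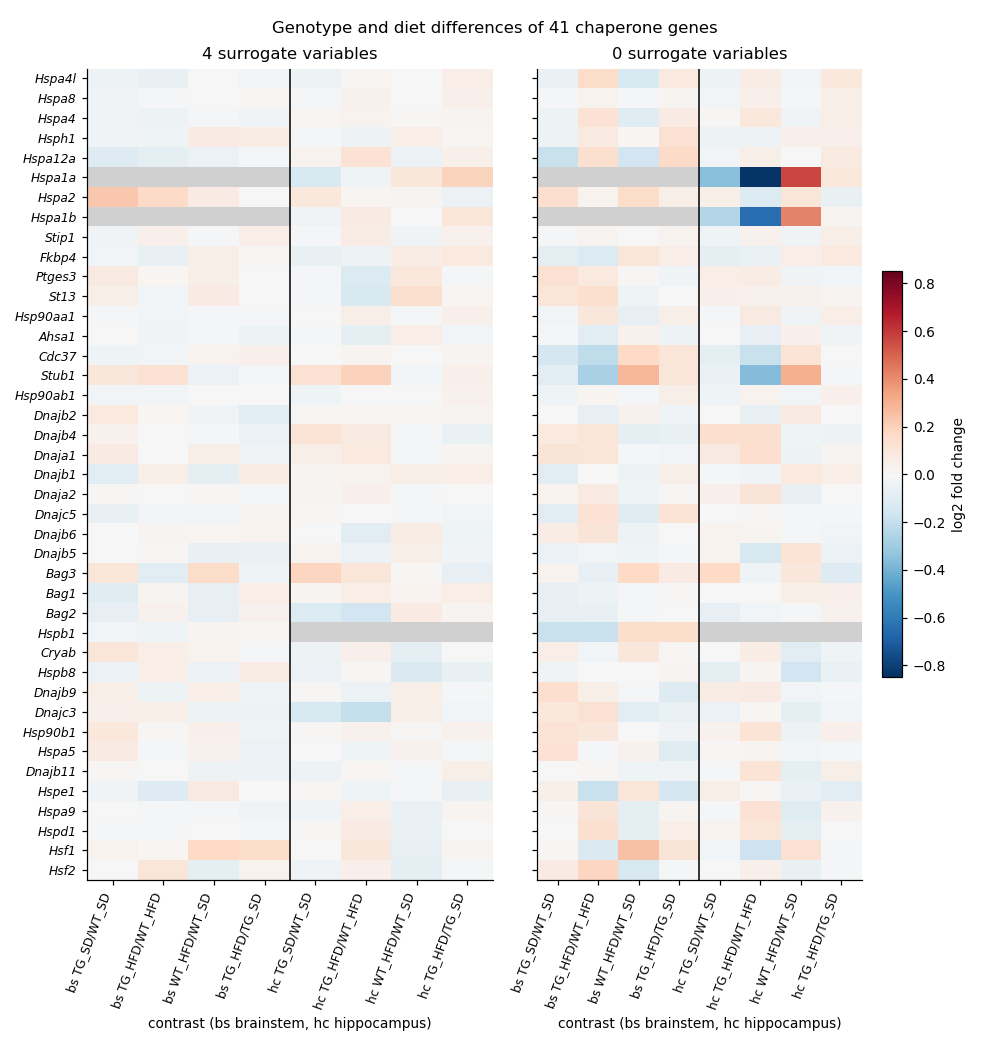
Heat map of the log2 fold changes (colour scale) of the 41 genes in the genotype and diet contrasts of brainstem (bs) and hippocampus (hc), with 4 surrogate variables on the left and 0 on the right, grey where a gene was under the read minimum. With 4 variables all values lie between -0.20 and 0.23, and with none Hspa1a (-0.83) and Hspa1b (-0.65) stand apart in hippocampus, TG_HFD/WT_HFD.

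The most abundant chaperones had nearly the same level in all 4 groups. Hspa8 had group means of 2148 to 2188 CPM in brainstem, WT_SD being at 2173 ± 103 (SD, n = 5) and TG_HFD at 2188 ± 93.5 (n = 6), and of 1617 to 1679 CPM in hippocampus. Hsp90aa1 ran from 1328 ± 90.5 in WT_HFD to 1417 ± 86.3 in TG_HFD in brainstem and from 1098 ± 58.7 to 1154 ± 74.6 in the same groups of hippocampus. Hsp90ab1 ran from 1182 ± 54.7 (TG_SD) to 1222 ± 36.3 (TG_HFD) in brainstem and from 1520 ± 34.1 to 1567 ± 49.9 in the same groups of hippocampus. Each of these steps is of the size of the SD within a group.

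Inducible members other than Hspa1a and Hspa1b were level as well. Dnajb1 ran between group means of 35 ± 1.70 (TG_SD) and 37.3 ± 2.89 CPM (WT_SD) in brainstem and between 36.0 ± 1.28 (TG_SD) and 38.5 ± 2.65 (WT_HFD) in hippocampus. Hsph1 ran between 212 ± 10.6 (TG_SD) and 232 ± 16.5 (TG_HFD) in brainstem and between 249 ± 14.3 (TG_SD) and 266 ± 18.1 (WT_HFD) in hippocampus. Bag3 ran between 23.8 ± 4.25 (WT_SD) and 26.8 ± 2.16 (WT_HFD) in brainstem and between 6.55 ± 0.586 (WT_SD) and 7.33 ± 0.719 (TG_SD) in hippocampus. The groups overlapped for each of these genes.

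Hspb1 ran between 6.93 ± 1.47 CPM (TG_SD) and 8.78 ± 1.10 (WT_HFD) in brainstem. In hippocampus it stood at 2.34 ± 0.372 in WT_SD, 2.71 ± 0.462 in WT_HFD, 2.18 ± 0.441 in TG_SD and 2.01 ± 0.409 in TG_HFD, and a lower read minimum (50 reads over all libraries) gave a log2 fold change of -0.16 in TG_HFD/WT_HFD (adjusted p = 0.889), and of -0.40 without surrogate variables (SE 0.17, adjusted p = 0.189). Cryab ran between 149 ± 12.4 (WT_SD) and 159 ± 9.88 (WT_HFD) in brainstem and between 48.0 ± 3.09 (WT_HFD) and 51.2 ± 5.54 (WT_SD) in hippocampus. Hspa5 ran between 238 ± 9.23 (WT_SD) and 259 ± 15.8 (TG_SD) in brainstem and between 195 ± 13.7 and 199 ± 13.9 in hippocampus. Dnajc5 (310 ± 29.9 to 337 ± 24.3 in brainstem, 361 ± 15.1 to 365 ± 23.5 in hippocampus) and Hsf1 (17 ± 1.91 to 20.2 ± 0.915 and 19.0 ± 2.69 to 21.4 ± 2.38) overlapped between groups too.

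Hspa1a and Hspa1b were the members whose level differed most between groups. In hippocampus, Hspa1a had a lowest, median and highest level of 8.74, 10.9 and 13.6 CPM in WT_HFD and of 5.47, 6.22 and 6.62 CPM in TG_HFD, with group means of 11 ± 1.91 and 6.16 ± 0.380 (SD, n = 6 each). The same values were 4.05, 8.11 and 9.72 CPM in WT_SD and 3.09, 5.70 and 8.22 CPM in TG_SD. WT_HFD and TG_HFD did not overlap, while both SD groups spanned a wide range that reached across TG_HFD.

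Hspa1b showed the same order. It had 11.4, 15.1 and 17.1 CPM in WT_HFD (mean 14.6 ± 2.33) and 7.55, 9.44 and 10.4 CPM in TG_HFD (mean 9.29 ± 1.03), again without overlap. In WT_SD it had 6.05, 12.1 and 14.7 CPM and in TG_SD 5.77, 9.65 and 11.8 CPM. Lower levels in TG_HFD without overlap were found for these 2 of the 40 members tested and for 3.41% of all genes in this contrast. Hspa9, at 188.6 to 216.3 CPM in WT_HFD and 216.7 to 233.5 in TG_HFD, was the 1 member higher without overlap (0.738% of all genes), and in brainstem Fkbp4, at 148.0 to 160.0 CPM in WT_HFD and 127.5 to 147.6 in TG_HFD, was the 1 member lower without overlap (0.315% of all genes).

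**Figure D4:**
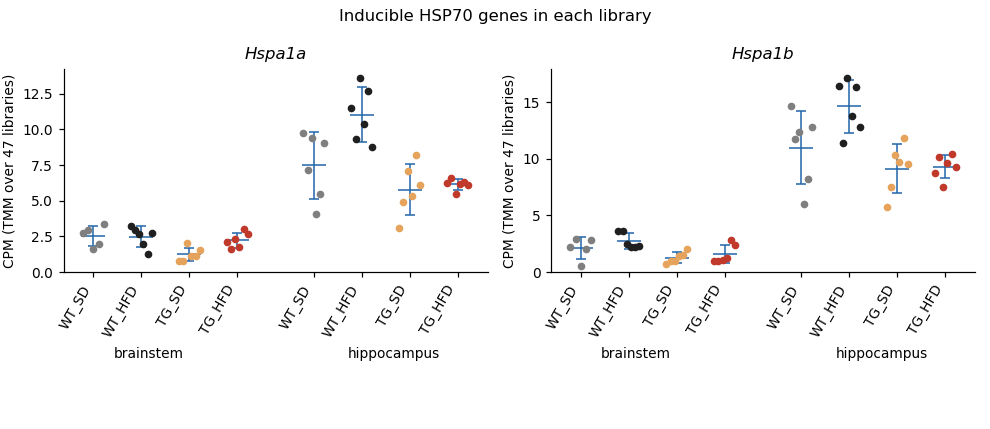
Level in CPM (linear axes from 0) of Hspa1a and Hspa1b in every library of brainstem and hippocampus by group, each point 1 library and each bar a group mean with its SD. In hippocampus the WT_HFD libraries (8.74 to 13.6 CPM for Hspa1a) sit above all TG_HFD libraries (5.47 to 6.62 CPM), and all brainstem libraries lie under 4 CPM.

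Whether this difference passed the test depended on the covariates. With 4 surrogate variables, Hspa1a had a log2 change of -0.03 (SE 0.16, adjusted p = 0.963) in TG_HFD/WT_HFD and Hspa1b of 0.07 (SE 0.14, adjusted p = 0.905). With none, Hspa1a was at -0.83 (SE 0.18, adjusted p = 0.00599) and Hspa1b at -0.65 (SE 0.16, adjusted p = 0.0140), and these were the 2 members called, where 3.88% of all genes were. Over all settings with every library the adjusted p ran from 0.000607 to 0.992 for Hspa1a and from 0.00370 to 0.964 for Hspa1b. Neither was called in WT_HFD/WT_SD without surrogate variables, where Hspa1a was at 0.57 (adjusted p = 0.291) and Hspa1b at 0.42 (adjusted p = 0.384).

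In brainstem the 5 WT_SD libraries had 2.72, 2.92, 1.62, 1.94 and 3.38 CPM of Hspa1a. Lowest, median and highest levels were 1.29, 2.71 and 3.25 CPM in WT_HFD, 0.792, 1.15 and 2.01 in TG_SD and 1.63, 2.19 and 3.01 in TG_HFD. The median was lowest in TG_SD, whose range reached 2 of the WT_SD libraries. For Hspa1b the WT_SD libraries had 2.23, 2.92, 0.563, 2.08 and 2.83 CPM, and the other groups ran over 2.18 to 3.66 in WT_HFD, 0.719 to 2 in TG_SD and 0.953 to 2.85 in TG_HFD. With the lower read minimum, TG_SD/WT_SD was at -0.78 for Hspa1a (SE 0.24, adjusted p = 0.221 with surrogate variables, and at -1.02, SE 0.26, adjusted p = 0.668 without) and at -0.40 for Hspa1b (adjusted p = 0.681, and at -0.75, adjusted p = 0.835 without). Without surrogate variables TG_HFD/WT_HFD was at -0.14 for Hspa1a (adjusted p = 0.827) and at -0.77 for Hspa1b (SE 0.30, adjusted p = 0.233), and with them at -0.06 and -0.46. TG_HFD/TG_SD was then at 0.86 for Hspa1a (SE 0.25, adjusted p = 0.820) and its interaction of genotype and diet at 0.88 (SE 0.35, adjusted p = 0.687), against -0.47 in hippocampus (SE 0.25, adjusted p = 0.933), while with surrogate variables the brainstem values were 0.63 and 0.72. The difference between regions was not tested. None of these brainstem differences passed.

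Both genes are rich in G and C, with 58.9% in the annotated transcript of Hspa1a and 58.1% in that of Hspa1b, above 92.8% and 89.9% of the genes tested. Stub1 and Hspb1, which also varied much between libraries of a group, had more, at 60.8% and 60.7%. The dependence of read counts on GC content differed between libraries. Its slope, in log2 units per 10 percentage points of GC content, had a median of 0.124 in hippocampal WT_HFD and -0.0593 in TG_HFD, of 0.0239 in WT_SD and -0.0246 in TG_SD, and of 0.135 and -0.0204 in brainstem WT_HFD and TG_HFD. In a setting added after the data were seen, a correction of the counts for GC content replaced the surrogate variables, and Hspa1a was at -0.62 (SE 0.15, adjusted p = 0.0412) and Hspa1b at -0.47 (SE 0.14, adjusted p = 0.0958).

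The slope also followed the levels of Hspa1a and Hspa1b among libraries of a group. With group means removed, its correlation with log2 CPM in hippocampus (n = 24) was r = 0.757 and rho = 0.666 for Hspa1a (permutation p within groups adjusted over 4 relations = 0.000387 and 0.00376) and r = 0.751 and rho = 0.717 for Hspa1b (0.000387 and 0.00224). In brainstem (n = 23) it was r = 0.533 and rho = 0.501 for Hspa1a (adjusted permutation p = 0.00782 and 0.0216) and r = 0.715 and rho = 0.690 for Hspa1b (0.000387 and 0.00376). Without the 2 libraries farthest from the median slope, r was 0.703, 0.690, 0.434 and 0.745 in that order. The slope was estimated over the tested genes of a region, so a gene rich in G and C tends to follow it by construction. Other genes of like GC content were not compared, so the relations are not shown to be particular to Hspa1a and Hspa1b. These relations were chosen after the data were seen, and the part of the slope in the group difference was not tested.

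**Figure D5:**
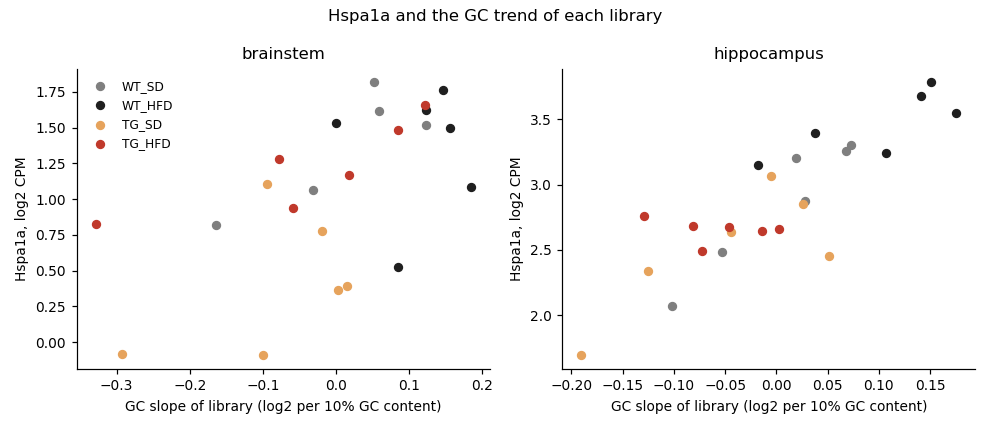
GC slope of each library (x axis, log2 units per 10 percentage points of GC content) against its log2 CPM of Hspa1a (y axis) in brainstem and hippocampus, each point 1 library coloured by group. Libraries with a higher slope had higher levels (r = 0.757 for hippocampal Hspa1a with group means removed), and the WT_HFD libraries had the highest median slope, 0.124 in hippocampus.

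Across the members themselves, the log2 fold change of TG_HFD/WT_HFD without surrogate variables followed GC content with r = -0.66 over 40 members in hippocampus and -0.797 over 39 in brainstem. With 4 surrogate variables r was 0.265 and 0.138 in this contrast. Other contrasts without surrogate variables, in hippocampus and brainstem, gave r = 0.622 and 0.698 (WT_HFD/WT_SD) and -0.447 and -0.521 (TG_SD/WT_SD). For TG_HFD/TG_SD r was -0.0867 and 0.39. Members are not replicates, and these values are a description.

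Whether members varied together between mice was examined from 34 relations, log2 CPM with group means removed, with Hspa1a and Hspa5 as anchors. Hspa1a and Hspa1b, whose windows above differ at few positions, were related in hippocampus (n = 24) with r = 0.951 and rho = 0.936 (permutation p within groups = 1e-05 for each, the smallest possible with 100000 permutations, adjusted p = 0.00034) and with r = 0.941 without the 2 extreme libraries. In brainstem (n = 23) the values were r = 0.665 (permutation p = 0.00032, adjusted 0.00544), rho = 0.745 (permutation p = 5e-05, adjusted 0.00085) and r = 0.634 without 2. How reads that match both copies were counted is not given in the sources used here. The GC slope of the libraries, which both genes followed, was not removed from these 34 relations, and its part in them was not tested.

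Hspa5 and Hsp90b1, which share the endoplasmic reticulum stress element shown above, were related in brainstem with r = 0.586 (permutation p = 0.00363, adjusted 0.0411) and rho = 0.520 (permutation p = 0.0165, adjusted 0.171), and r was 0.525 without 2. Leaving out any of 11 brainstem libraries ended the call. In hippocampus r was 0.309 (adjusted permutation p = 0.413). Dnajc3, which holds the same element, did not pass with Hspa5. Its r was 0.435 in brainstem and 0.357 in hippocampus (adjusted permutation p = 0.262 and 0.339). The relation of Hspa5 to Dnajb9 gave r = 0.566 in brainstem and 0.475 in hippocampus (adjusted permutation p = 0.101 for each), and that to Dnajb11 gave -0.041 and 0.296.

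No other inducible gene passed with Hspa1a. In brainstem its r was 0.516 with Hspb1 (adjusted permutation p = 0.101), -0.461 with Dnajb4 (0.144) and -0.126 with Dnajb1 (0.831). In hippocampus r was 0.281 with Hspb1 (adjusted permutation p = 0.451), 0.195 with Dnajb1 (0.518) and -0.050 with Hsph1 (0.892). The group-centred level of Hspa1a in brainstem and hippocampus libraries of the same group and number had r = 0.402 (permutation p = 0.173) and rho = 0.377 (p = 0.175) over 17 couples, with r = 0.541 without 2, and no source states that such libraries came from 1 mouse.

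The other lists of the folding machinery and the immediate early genes gave 0 calls by edgeR in all genotype and diet contrasts with 4 surrogate variables. Of the 96 of their genes tested in each region, between 3 and 14 had an unadjusted p of 0.05 or less per contrast, the 14 in hippocampal TG_HFD/WT_HFD. Without surrogate variables, hippocampal TG_HFD/WT_HFD called 2 of 33 further cytosolic chaperones, 1 of 24 genes of the endoplasmic reticulum and 3 of 8 immediate early genes. The latter were Junb (-1.0, adjusted p = 0.00135), Arc (-0.56) and Nr4a1 (-0.48). It called 0 of 16 genes of the list with TRiC and prefoldin and 0 of 15 of mitochondria. All these calls were lower in TG_HFD, and 3.88% of all genes were called in either direction. With 4 surrogate variables Junb was at -0.22 (adjusted p = 0.536), Arc at -0.12 and Nr4a1 at -0.21.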

How the data were processed

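Poly(A) RNA of brainstem and hippocampus was sequenced as single-end reads of 75 bases. The authors deposited 1 table of raw read counts per gene for each region, aligned to a mouse genome. The product and level of the transgene are not reported here. The submitters' processing notes name FastQC 0.11.9, STAR 2.7.9a and DESeq2 1.32.0, and the counting tool and its strand setting are not given in the sources used here. The members and lists were chosen with earlier results of these data known. Genes with a mean of at least 50 reads per library of a region were tested with edgeR 4.0.16 (TMM normalization, quasi-likelihood test) and surrogate variables from sva 3.50.0, 4 per region by its own estimate (the study used surrogate variables with DESeq2, their number not being given in the sources used here), and the regions in a joint fit of 8 groups without surrogate variables. Calls needed both a Benjamini-Hochberg adjusted p no higher than 0.05 and a log2 fold change of 0.3 or more in size. CPM were TMM-scaled, and log2 CPM used a prior count of 2. Gene names, transcript length and GC content came from GENCODE vM21, on an older build, so no gene coordinates are given. Correlations used two-sided permutations within groups. Full values are given for 13 set members, those called, the smallest p per contrast and the 3 largest regional changes each way. Per the study's methods the libraries of a group came from separate mice, which the labels do not name. The fits were tested on simulated data, where any hidden factor was drawn without regard to the groups. Such data cannot show how the fits treat variation that differs between groups. Alternatives were other normalizations, read minimums, numbers of surrogate variables, DESeq2 1.42.0, a replicate block, a GC correction and leaving out each library.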

Additional observations from a re-analysis of the deposited data

Results flagged for a closer look

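In each group of 5 or 6 libraries, the most extreme library was compared with its neighbour on log2 CPM. Their gap was set against the range of the group by Dixon's criterion, which chance passes in about 1 of 20 groups. The levels below are in CPM, a scale on which the criterion was not applied. Over the 13 members with full values, 4 groups passed (3.85% of those examined), and over all members 21 of 328. Hspa1b in brainstem WT_SD library 6 was the lowest at 0.563 CPM, a level that rests on 8 reads, the next being at 2.08 CPM. Hsp90ab1 in hippocampal WT_HFD library 7 was the lowest at 1426 CPM, the next being at 1563 CPM. Cryab in hippocampal WT_SD library 3 was the lowest at 40.8 CPM, the next being at 51.1 CPM. Hspa5 in hippocampal WT_HFD library 5 was the highest at 221.0 CPM, the next being at 195 CPM.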

How the results depend on the processing

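The members called in brainstem contrasts, and in hippocampal contrasts other than TG_HFD/WT_HFD, stayed at 0 under every alternative run, leaving out each library included. In hippocampal TG_HFD/WT_HFD the count of 0 became 2 without surrogate variables, 3 with 1 or 2 surrogate variables, 3 with DESeq2 without surrogate variables, 2 with a minimum total of 50 reads and no surrogate variables, 1 with the GC correction and 2 with the 2 groups alone. The third gene, Stub1, was at -0.37 with 1 or 2 variables, 0.19 with 4 and -0.10 after the GC correction. Hspa1a was at -0.83 with 0, 1 or 2 variables and -0.22 with 3, and leaving out each library with 4 variables gave -0.34 to 0.11. Hspa1b, at 0.07 with 4 variables, was at -0.65 with 0, 1 or 2, -0.093 with 3, -0.060 with a minimum total of 50 reads, -0.64 with that minimum or DESeq2 and no variables, -0.47 after the GC correction and -0.50 with the 2 groups alone, and leaving out each library gave -0.15 to 0.20. Over all genes this contrast called 30 with 4 variables, 515 with none, 614 with 1, 634 with 2, 550 with DESeq2 without variables, 82 after the GC correction and 258 with the 2 groups alone. Brainstem TG_HFD/WT_HFD called 7 genes, 25 with 2 variables and 87 with DESeq2 without variables. The cause of these differences was not tested.

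Same-numbered libraries of different groups had a median correlation of 0.04 in brainstem and 0.07 in hippocampus, so the numbers are not shown to pair them. A replicate block left 23 of 41 members called between regions and 0 in hippocampal TG_HFD/WT_HFD, or 2 without surrogate variables, Hspa1b then being at -0.64. Between regions the 24 calls became 38 without a fold threshold and 9 when the log2 fold change had to reach 1 in size, and lay between 21 and 27 under the other alternatives. Hspa5 and Ptges3 were lost under 7 of these and St13 under the same 7 and the block, while Hspe1 was lost with surrogate variables and Hsp90b1 after the GC correction. Under these settings signs turned only among genes not called, namely Stub1, Dnaja1, Dnajb1, Dnajb11 and Hsf1. The largest regional changes kept sign and call throughout, Hspa1b running from 2.08 to 2.60 and Bag3 from -1.95 to -1.80. The 3 relations between members became 12 when group means were not removed. The relation of same-numbered libraries of both regions ran from 0.195 to 0.627 when each library was left out, reaching 0.627 (permutation p = 0.0469) without brainstem WT_HFD library 7 and 0.604 without hippocampal WT_HFD library 7. Depth limits Hspa1a, Hspa1b and Hspb1 most, whose levels rest on 24.7 to 32.8 reads in 1 region.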
